A study of Mus musculus with 4 samples.

Results

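The pericentromeric stretch of an autosome is the first sequence that a mouse genome assembly holds beyond the unassembled centromere. Methylated regions were assigned to it from the MeDIP-seq peaks of 4 islet libraries. Peaks sharing at least 1 base were joined across the libraries, and a joined region was kept when it started between positions 3000000 and 6000000 of chromosomes 1 to 19 (mm10, the same assembly as GRCm38). This rule kept 4215 of the 186169 regions on the autosomes, X and Y, and of the 180857 autosomal ones. The rule used position only, and no measured level entered it.

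Mouse chromosomes are acrocentric, so the centromere sits at the very start of each chromosome. Its satellite arrays are packed as constitutive heterochromatin, in which CpG methylation by the DNA methyltransferases, H3K9 methylation and HP1 proteins keep repeats silent and chromosome segregation stable. The satellites themselves are largely absent from the assembly, and what follows them is a transition into segmental duplications, transposon remnants and the first genes. In MeDIP-seq, an antibody against methylated cytosine pulls down sheared single-stranded DNA, so the signal grows with the number of methylated CpG sites in a fragment.

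The WT islets came from mice with loxP-flanked Raptor alleles and no Cre (Raptor lox/lox), and the βRapKO islets from mice with the same alleles and RipCre, both labelled C57BL/6 and 8 weeks old. The methods describe the RipCre line as of mixed C57BL/6J and 129/SvJ origin, and strain differences carried with the transgene cannot be told apart from the deletion. RipCre is driven by the rat insulin promoter and deletes Raptor, the scaffold of mTORC1, in insulin-expressing cells, while handpicked islets also hold other endocrine and vascular cells. A different mix of cells and a different methylation per cell therefore cannot be told apart, and peak files can check neither the deletion nor the cell types. Each genotype had 2 libraries, and no source used here says whether islets of several mice were pooled in 1 library, so the spread between libraries may be technical. After removal of duplicates the libraries held between 25585533 and 31330751 tags. Values are given as CPM, the tags in a library's peaks within a region per 1000000 of its tags left after that removal.

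Sequence is shown around the summits of a few regions of high CPM, which are not typical of the part. Over all 4215 regions, 16.7% consisted mostly of sequence found more than once in the reference, and 2.68% were tandem repeats. The second highest region, nearly all of sequence found once, is not printed. The 150 bases centred on the mean summit of the 4 libraries are given below for the region of highest CPM, on chromosome 11 (chr11:3100723-3100872), for the third highest, on chromosome 4 (chr4:3090197-3090346), and for a chromosome 12 region chosen after its values were seen because it shares words with the same satellite (chr12:3109953-3110102). They are followed by the summit of the fourth highest, on chromosome 10 (chr10:3114430-3114579). All are GRCm38 plus strand, 5′ to 3′, with CpG sites in capitals.

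chr11 summit: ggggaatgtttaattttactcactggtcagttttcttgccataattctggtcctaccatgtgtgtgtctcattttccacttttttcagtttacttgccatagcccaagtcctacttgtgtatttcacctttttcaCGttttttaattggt

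chr4 summit: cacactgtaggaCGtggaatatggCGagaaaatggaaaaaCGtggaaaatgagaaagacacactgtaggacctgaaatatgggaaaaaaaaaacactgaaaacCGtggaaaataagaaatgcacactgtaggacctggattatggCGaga

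chr12 summit: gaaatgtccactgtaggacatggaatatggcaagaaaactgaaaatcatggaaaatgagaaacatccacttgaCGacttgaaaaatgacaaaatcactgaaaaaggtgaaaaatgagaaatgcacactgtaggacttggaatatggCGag

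chr10 summit: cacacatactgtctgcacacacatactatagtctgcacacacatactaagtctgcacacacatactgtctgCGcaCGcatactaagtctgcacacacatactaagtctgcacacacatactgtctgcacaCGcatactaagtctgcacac

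The fifth highest region lay in an intron of Atp6v1h, a subunit of the vacuolar proton pump, and consisted of a tandem repeat with a period of 57 bases. Its 3 consecutive units around the mean summit (chr1:5112786-5112842, chr1:5112843-5112899 and chr1:5112900-5112956) are shown because they differ at CpG sites. Units 2 and 3 equalled unit 1 at 54 and 53 of 57 bases.

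chr1 unit 1: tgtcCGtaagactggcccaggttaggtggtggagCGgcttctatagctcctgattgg

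chr1 unit 2: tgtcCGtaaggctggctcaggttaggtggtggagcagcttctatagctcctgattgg

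chr1 unit 3: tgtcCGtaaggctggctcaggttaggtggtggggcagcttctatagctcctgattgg

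An array with satellite-like units opened chromosome 9, between positions 3000001 and 3038000, with a period of 234 bases, the repeat length by which the mouse major satellite is known. Over its 16 windows of 2 kb that met the criterion for a tandem repeat, a median of 75.1% of bases equalled the base 1 period on. A pair of neighbouring units from its most regular window (chr9:3026001-3026234 and chr9:3026235-3026468) was equal at 216 of 234 bases and held 4 and 3 CpG sites.

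chr9 unit 1: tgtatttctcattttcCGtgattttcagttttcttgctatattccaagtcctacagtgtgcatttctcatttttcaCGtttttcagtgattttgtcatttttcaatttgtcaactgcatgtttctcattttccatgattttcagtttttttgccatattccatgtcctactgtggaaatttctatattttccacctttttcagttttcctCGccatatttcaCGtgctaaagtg

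chr9 unit 2: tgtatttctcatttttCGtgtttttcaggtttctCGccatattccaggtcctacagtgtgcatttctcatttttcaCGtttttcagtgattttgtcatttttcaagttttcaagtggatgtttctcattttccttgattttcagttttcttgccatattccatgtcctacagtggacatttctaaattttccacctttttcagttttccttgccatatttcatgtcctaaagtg

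None of these 16 windows held a peak in any library, and the first region of chromosome 9 started 55.6 kb into the assembled sequence. The authors' treatment of reads that map to several places is not given in the sources used here, and its part in the absence of peaks was not tested. Words of 14 bases from the array were looked up on both strands of every region. Only 3 of the 4215 regions held at least 5% such words, the chromosome 11, 4 and 12 regions whose summits are printed above, with 16.3%, 11% and 10.6%. None of the 3912 autosomal regions starting in the following 3 Mb, between 6 and 9 Mb, did. All 3 lay in the first 250 kb and had a peak in every library.

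The chromosome 11 region (chr11:3099765-3106227) started just before the first assembled base, 3100001, and lay 25.6 kb from the nearest coding gene, Sfi1. Levels were 103 and 94.7 CPM in WT and 96.0 and 103 CPM in βRapKO, so the genotypes overlapped. Means were 98.7 ± 5.62 in WT and 99.6 ± 5.05 in βRapKO (SD, n = 2 each), with a log2 fold-change of 0.01 ± 0.07 (SE). Its fold enrichment over the local background, as the peak caller gave it, lay between 3.41 and 4.08. The chromosome 12 region (chr12:3109159-3111395) had 18.2 and 14.2 CPM in WT and 15.2 and 15.7 CPM in βRapKO, which overlap, and its fold enrichment ran from 18 to 21.2. Of these 2 regions, the one with the lower CPM thus stood higher above its surroundings.

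The second highest region, on the same chromosome (chr11:3188727-3196327), overlapped coding exons of Sfi1, a centrosomal protein gene, and its start site, together with coding exons of Drg1, a GTP-binding protein gene. It held 61 and 66.4 CPM in WT and 74.7 and 62.0 CPM in βRapKO, again overlapping. Its sequence was nearly all found once in the reference, with 5 of 152 windows of 50 bases occurring elsewhere. The chromosome 4 region (chr4:3088877-3092887) had 54.6 and 47.0 CPM in WT and 49.0 and 52.8 CPM in βRapKO. The chromosome 10 region (chr10:3111022-3117805), a tandem repeat with a period of 19 bases in which 75% of bases recurred, had 38.4 and 49.3 CPM in WT and 51.0 and 47.7 CPM in βRapKO. At both, at least 1 βRapKO value lay between the WT values. At the Atp6v1h repeat (chr1:5109118-5115014) the 4 libraries lay closest together, at 35.5 and 37.9 CPM in WT and 35.6 and 36.7 CPM in βRapKO. The sixth region (chr18:3003474-3011316) had 40.4 and 26.7 CPM in WT and 37.9 and 35.1 CPM in βRapKO, and the low WT value came from a library whose peaks there covered 4.40 kb against 7.59 to 7.82 kb in the other libraries. In all 6 the genotypes overlapped, and no adjusted p was below 0.867 (edgeR's quasi-likelihood test, Benjamini-Hochberg adjustment over 75052 regions). None of the 6 reached, in any library, the median fold enrichment of 8.45 over the 1844 regions with a peak in every library. Fold enrichment was 2.38 to 2.91 at the chromosome 10 region and 2.90 to 3.04 at the Atp6v1h repeat. With no input DNA as control, CPM was not corrected for the copy number of the sequence.

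**Figure D1:**
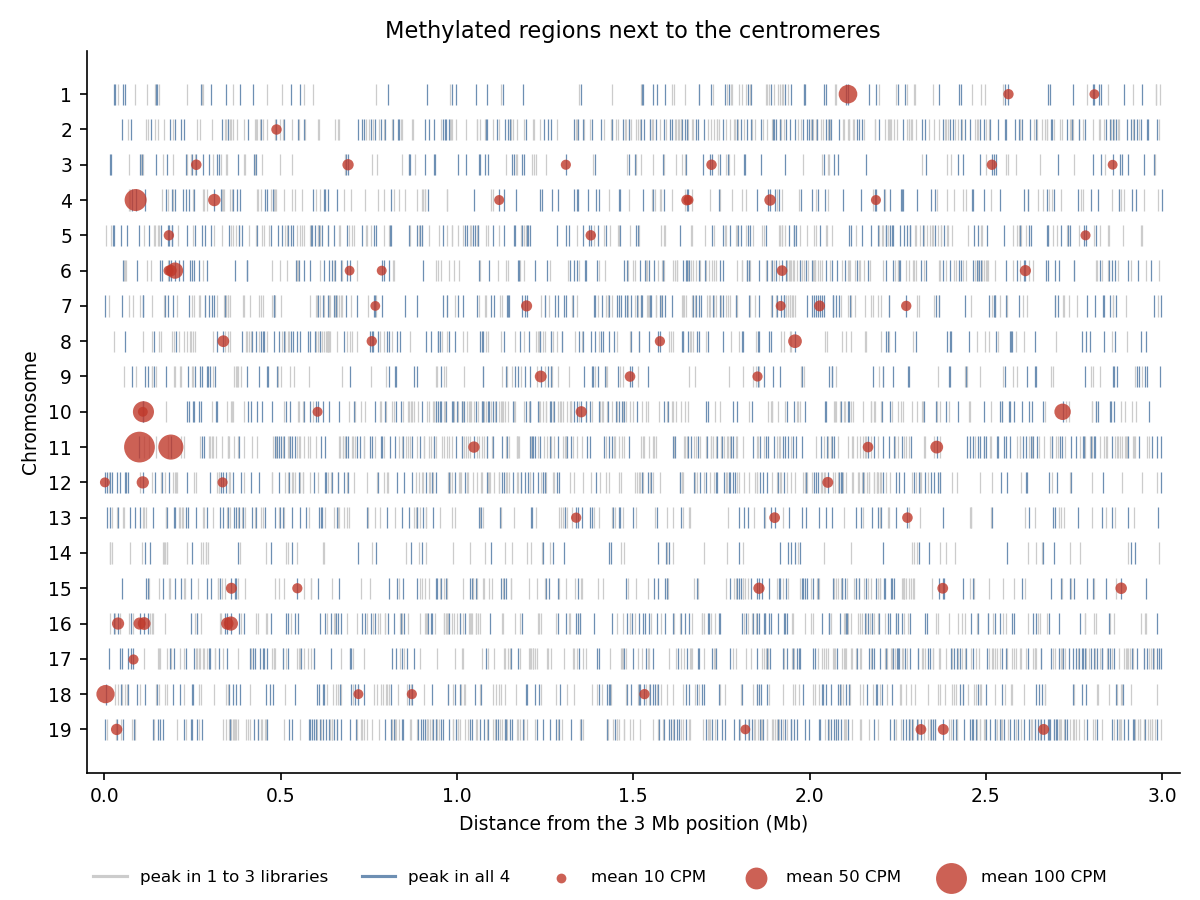
Position of the 4215 regions, with distance from the 3 Mb position in Mb on the horizontal axis and 1 row per autosome. Grey ticks had a peak in 1 to 3 libraries, blue ticks in all 4, and red circles mark the 76 regions with a mean of at least 10 CPM, their area proportional to CPM. Of the 6 largest circles, those on chromosomes 4, 10, 11 and 18 sit near the left edge and that on chromosome 1 lies 2109 kb away from it.

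Regions of at least 10 CPM with a peak in every library numbered 76, or 1.80% of the 4215, against 1.16% of the 176642 other autosomal regions and 1.94% of those between 6 and 9 Mb. They lay on 18 of the 19 autosomes, all but chromosome 14. Of the 76, 62 consisted mostly of sequence found more than once in the reference, 62 lay outside coding genes and their upstream 2 kb, 6 in introns and 8 over exons. The exonic ones included Akap12, an anchor of protein kinase A, Pcnx3 and Sart1. Between genotypes, 45 of the 76 had a lower and 31 a higher value in βRapKO (median log2 fold-change -0.02). Over all 75052 regions tested, 60.8% had a log2 fold-change below 0.

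The first 250 kb after the 3 Mb position held more signal per Mb than the rest of the interval in every library. Peaks there held 252 and 265 CPM per assembled Mb in WT and 241 and 251 in βRapKO. In the 11 following bins of 250 kb the values ran from 122 to 168 and from 137 to 174 in WT, and from 110 to 150 and from 117 to 154 in βRapKO, so no later bin reached the first in any library. The number of regions did not follow this pattern, with 69.6 per Mb in the first bin and 62.5 to 85.7 in the others. The first bin held 17 of the 76 regions of at least 10 CPM, while each later one held between 4 and 8.

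Repeated sequence and a few strong regions went with that signal. In the first 250 kb, 133 of 299 regions (44.5%) consisted mostly of 50-base windows found more than once in the reference, against 573 of 3916 (14.6%) further on. Regions mostly of sequence found once still held 133 and 132 CPM per Mb in WT and 125.2 and 132 in βRapKO, against 88.0 and 100 in WT and 79.6 and 86.9 in βRapKO beyond 250 kb. Chromosome 11 alone gave 18.8% of the mean CPM of the first bin. With the 2 strongest regions left out, the first bin held 214 and 228 CPM per Mb in WT and 201 and 213 in βRapKO, against 133 and 146 in WT and 122 and 130 in βRapKO for the remaining interval treated likewise. The first bin was the higher one in all 4 libraries in each of these computations, and the share of repeated sequence in the difference was not tested.

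**Figure D2:**
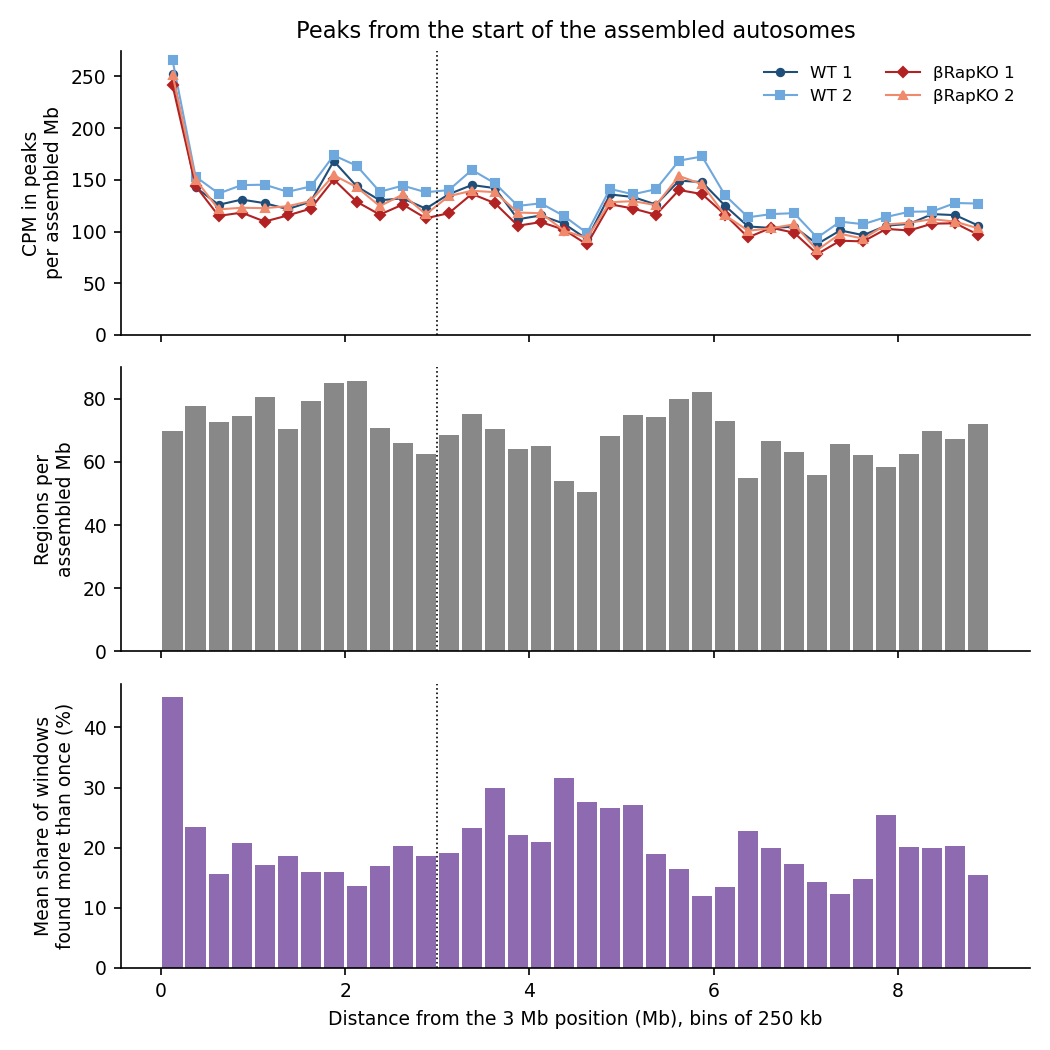
Profile in bins of 250 kb over the first 9 Mb beyond the 3 Mb position, summed over 19 autosomes. The upper panel gives CPM in peaks per assembled Mb for each library, the middle panel regions per assembled Mb, and the lower panel the mean share of a region's 50-base windows found more than once. The dotted line at 3 Mb marks the end of the interval, and the first bin is highest in all libraries, at 241 to 265 CPM per Mb.

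Over its whole length the interval differed little in density from the rest of the autosomes. It held 74.6 regions per assembled Mb, against 68.9 between 6 and 9 Mb, 77.3 in the last 3 Mb of assembled sequence and 75.5 over all autosomes. The median width was 1124 bp against 1143 bp for other autosomal regions, and the median CpG density was 1.59 against 1.58 sites per 100 bases. Repeats masked in the reference took a median of 32.9% of a region, against 23.6% elsewhere, 31.7% between 6 and 9 Mb and 22.8% at the distal ends. A share of 16.7% consisted mostly of sequence found more than once, against 12.5% elsewhere and 21.4% between 6 and 9 Mb, so repeat content was above that of the other regions beyond the interval as well.

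A peak was called in every library at 1844 regions (43.7%), against 40% of the other autosomal regions. The share was 65.9% for the 706 regions mostly of sequence found more than once, 48.2% for the 1657 mixed ones and 31.4% for the 1852 found once. The same order held over all autosomal regions, at 61.9%, 44.7% and 32.6%. CpG density followed it too, with medians of 2.16, 1.55 and 1.47 sites per 100 bases.

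Tandem repeats, in which at least 50% of bases recurred at a fixed spacing between 10 and 300 bases, made up 113 regions (2.68%), against 1.78% of the other autosomal regions. The commonest period was 212 bases, in 23 regions, of which 4 had a peak in every library. A period of 208 bases occurred in 8 regions, and all 8 had a peak in every library, with a median of 7.14 CPM. Elsewhere on the autosomes 402 of 402 regions with the 208-base period had a peak in every library, against 24.6% of 769 with the 212-base period. The median CpG densities of these 208-base and 212-base regions were 3.52 and 4.14 sites per 100 bases. The cause of their difference in calls was not tested. The promoters of young mouse LINE-1 retrotransposons are built from tandem monomers of about this size, but repeat families were not annotated here. Short arrays near the chromosome start differed too, counted over the 2 kb windows that met the tandem criterion. The 21-base arrays that open chromosomes 3 and 4 held a region in 0 of 10 such windows each, and that of chromosome 17 in 1 of 13. A 31-base array of chromosome 9 held one in 0 of 16. Between such windows, the arrays of chromosomes 3, 4 and 9 did hold the first regions of those chromosomes. The 19-base array of chromosome 10 and a 22-base array of chromosome 4 held a region in 4 of 4 windows each. A 22-base array of chromosome 6 held one in 2 of 4. Over all 123 such windows 29.3% held a region, against 23.1% of all 28236 windows of the interval.

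The autosomes differed widely. Chromosome 19 had 354 regions, or 118 per Mb, and chromosome 14 had 92, or 30.7 per Mb. On chromosome 14, 96.7% of them consisted mostly of sequence found more than once, against 38.6% on chromosome 3, the next highest, and 3.55% on chromosome 11. Region density was higher where the 3 Mb were richer in CpG sites, with a Pearson r of 0.924 and a Spearman rho of 0.947 over 19 chromosomes measured in the same libraries, which is given as a description. Chromosome 14 lay below the others of similar CpG density, with 0.644 CpG sites per 100 bases. On 10 of the 19 chromosomes the interval was denser in regions than the chromosome as a whole.

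**Figure D3:**
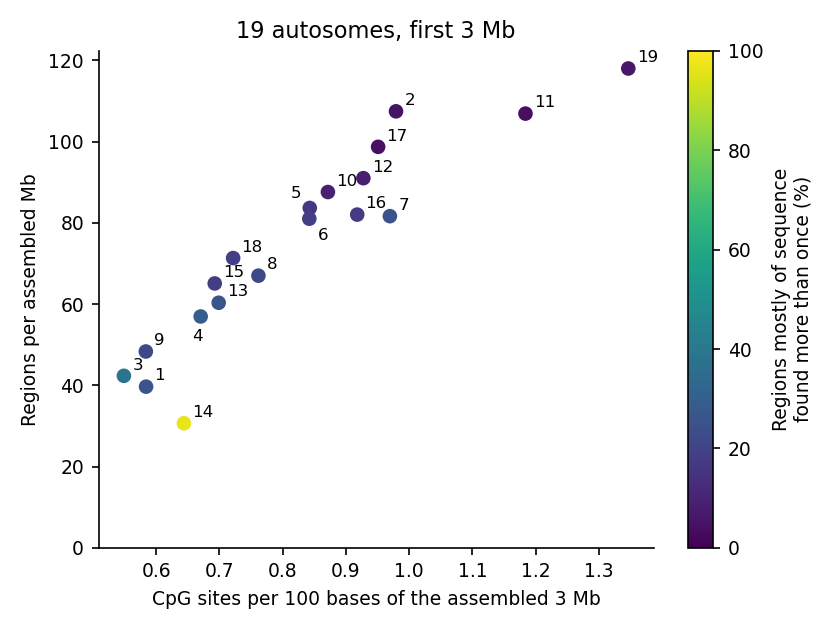
Regions per assembled Mb against CpG sites per 100 bases of the assembled 3 Mb, 1 point per autosome, labelled by number and coloured by the percent of regions mostly of sequence found more than once. Points run from chromosomes 1, 3 and 9 at the lower left to chromosome 19 at the upper right, and chromosome 14 lies apart at 30.7 regions per Mb.

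The first region beyond the centromere was examined on each autosome. On 13 of the 19 it had a peak in every library, and on chromosomes 4, 5, 8, 14 and 16 in a single library only. It started within 2 kb of the first assembled base on chromosomes 2, 6, 7, 11, 12, 15 and 19, and just before that base on chromosomes 2 and 11. Levels ranged from 0.958 CPM in a WT library on chromosome 1 to 103 CPM on chromosome 11. No coding gene overlapped any of them. The nearest coding genes were of various kinds, such as Xkr4 on chromosome 1, Hnf4g on chromosome 3, Cdk6 on chromosome 5 and Insr on chromosome 8, 94.0 kb away. Chemosensory receptor genes were nearest on chromosomes 4 (Vmn1r2, 96.5 kb), 18 (Vmn1r238, 111 kb) and 16 (Olfr161, 573 kb).

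The comparison of genotypes asks whether loss of mTORC1 in beta cells moved methylation next to the centromeres. Summed over the interval, peaks held 8074 and 8826 CPM in WT and 7484 and 7938 CPM in βRapKO. Both βRapKO values were below both WT values, a log2 ratio of -0.13, but an exact permutation test of 2 libraries against 2 cannot give a p below 0.333. Over the 1844 regions with a peak in every library the sums were 6527 and 6437 CPM in WT and 6137 and 6432 CPM in βRapKO, so the nearest WT and βRapKO libraries were almost level. Without WT replicate 2, which had the most regions to itself, the log2 ratio over the interval was -0.066. With stricter peaks, of a score of at least 100, it was -0.20. The summed peaks covered 3423 and 3787 kb in WT and 3503 and 3731 kb in βRapKO, with medians of 1.89 and 1.88 CPM per kb in WT and 1.72 and 1.72 in βRapKO. The other autosomal regions had medians of 1.84 and 1.84 in WT and 1.68 and 1.69 in βRapKO. The interval took 2.62% and 2.58% of the autosomal tags in peaks in WT and 2.66% and 2.66% in βRapKO, so its share was not lower in βRapKO. Scaled to all tags in peaks instead, the log2 ratio turned to 0.03. In CPM, the mean summed value was lower in βRapKO on 19 of the 19 autosomes. On 12 of them neither βRapKO library reached the lower WT value. The autosomes were measured in the same libraries with the same scaling, so they do not count as repeated evidence. Over all autosomes in full, peaks held 129 and 143 CPM per assembled Mb in WT and 117 and 125 in βRapKO, also lower in both βRapKO libraries. Whether the count by chromosome is particular to this interval was not tested.

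No region next to a centromere passed an FDR of 0.05 with a 1.5-fold change among the 1844 tested, and none of the 75052 regions tested over the genome did (0.0% in either direction). The smallest adjusted p among the 1844 was 0.358 (edgeR's quasi-likelihood test). At an unadjusted p under 0.05, 57 were lower in βRapKO (3.09%, against 3.93% of all regions tested) and 26 were higher (1.41%, against 1.88%), both below the genome-wide shares. By DESeq2 8 were lower and 9 higher, and neither DESeq2 nor limma called a region at the FDR. The split turned with the scaling, to 11 lower and 88 higher when libraries were scaled to all tags in peaks, and to 33 lower and 44 higher under TMM normalization. It turned with the libraries as well. There were 36 lower and 41 higher without WT replicate 1, 33 and 45 without WT replicate 2, and 34 and 31 without βRapKO replicate 1, but 97 and 29, or 126 in all, without βRapKO replicate 2. Among the 1844 the log2 fold-change had a median of -0.05, against -0.06 over all regions tested, and 59.4% against 60.8% were below 0. The median was -0.021 without βRapKO replicate 1 and -0.090 without βRapKO replicate 2. Scaling by tags in peaks moved the median of all regions by 0.16, and counting tags per kb of peak moved it by -0.11.

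Libraries that did not overlap were counted too. Both βRapKO values were below both WT values at 415 of the 1844 regions (22.5%, against 25.3% of all), and above them at 226 (12.3%, against 11.6%). Mean CPM was more than 1.5-fold lower in βRapKO at 23 regions (1.25%, against 1.77%) and more than 1.5-fold higher at 20 (1.08%, against 1.29%). By position in genes, the median log2 fold-change was -0.13 for regions over exons, -0.04 in introns and -0.03 outside genes, against -0.10, -0.05 and -0.05 over all autosomal regions. Regions mostly of sequence found more than once had a median of -0.03 and those found once a median of -0.09, against -0.06 and -0.07 over all autosomal regions. By chromosome the medians ran from -0.12 on chromosome 19 to 0.01 on chromosome 9.

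**Figure D4:**
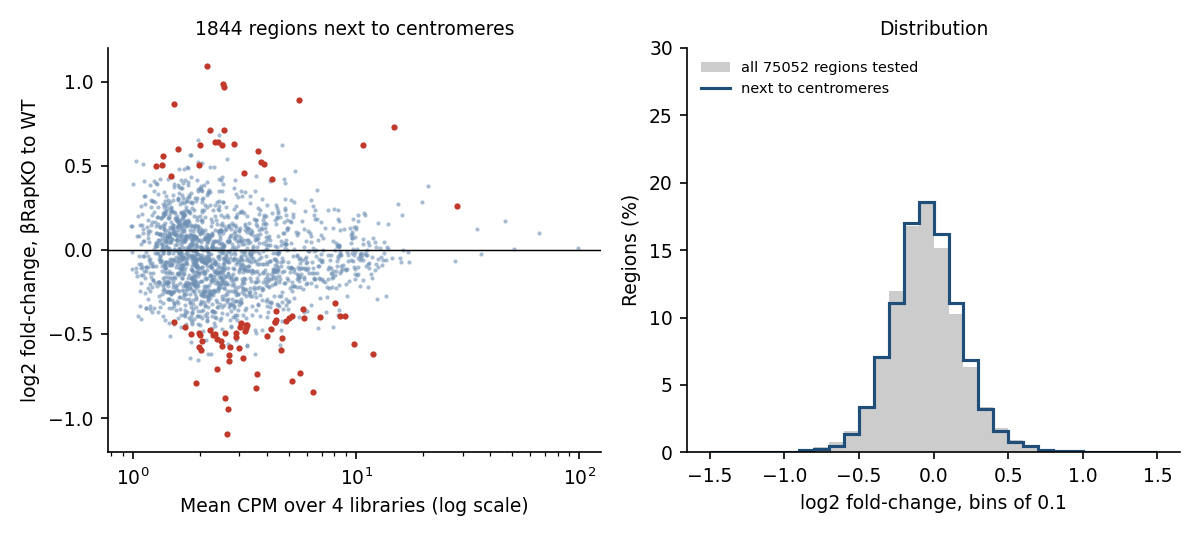
Left, log2 fold-change of βRapKO to WT against mean CPM on a log scale, 1 point for each of the 1844 regions tested, with the 83 of unadjusted p under 0.05 in red. Right, the percent of regions in bins of 0.1 for these regions (line) and for all 75052 tested (grey); the 2 distributions nearly coincide, with medians of -0.05 and -0.06.

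The regions of smallest p were followed library by library, and this choice favours regions whose genotypes do not overlap. The smallest of all, chr9:4237766-4243818, lay outside genes in sequence mostly found more than once and held 11.5 and 10.9 CPM in WT and 18.1 and 18.9 CPM in βRapKO. The genotypes did not overlap, with means of 11.2 ± 0.402 and 18.5 ± 0.553 (SD, n = 2 each) and a log2 fold-change of 0.73 ± 0.10 (SE). Its peaks covered 2.65 and 2.59 kb in WT but 5.99 and 5.66 kb in βRapKO, and per kb of peak it held 4.33 and 4.21 CPM in WT against 3.03 and 3.34 in βRapKO, the opposite order. The other higher regions, chr3:5522422-5525872, chr9:5995105-5997352 and chr2:3835874-3837258, had log2 fold-changes of 0.89, 1.09 and 0.87 and also covered longer peaks in both βRapKO libraries. For chr3:5522422-5525872 the lengths were 1.78 and 1.36 kb in WT and 3.45 and 3.14 kb in βRapKO, and the levels were 4.22 and 3.54 CPM in WT and 6.95 and 7.40 CPM in βRapKO. Tags per kb of peak turned the sign of all 4.

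Among the lower regions, chr10:4055053-4057092 overlapped a coding exon of Mthfd1l, a mitochondrial enzyme of folate metabolism, with 3.67 and 3.51 CPM in WT and 1.44 and 1.92 CPM in βRapKO. The genotypes did not overlap, and the log2 fold-change was -1.09 ± 0.21 (SE), with an adjusted p of 0.402. Its peaks covered 2.04 and 1.90 kb in WT and 1.10 and 0.907 kb in βRapKO. Per kb the levels were 1.80 and 1.84 CPM in WT and 1.31 and 2.12 CPM in βRapKO, which overlap, and the log2 fold-change was -0.12. The region chr8:3753860-3757398, 4.88 kb from the immune lectin gene Cd209a, had 12.1 and 11.2 CPM in WT and 7.77 and 8.09 CPM in βRapKO. Its peaks covered 3.48 and 3.53 kb in WT and 1.79 and 2.10 kb in βRapKO, and the sign turned per kb, as it did for chr17:4735834-4739308. The region chr11:5165977-5171114, 13.7 kb from Emid1, was lower in CPM and in CPM per kb alike. It had 12.8 and 15.9 CPM in WT and 9.07 and 9.67 CPM in βRapKO, or 3.31 and 3.09 CPM per kb in WT and 2.29 and 2.37 in βRapKO.

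Called length went with the fold-change in general. Over the 1844 regions, the Spearman rho between the log2 fold-change and the log2 ratio of peak lengths was 0.513, given as a description of values from the same peaks. The median log2 ratio of peak lengths over the 1844 was 0.104, toward longer peaks in βRapKO. Against that background, all 26 higher regions of unadjusted p under 0.05 had longer peaks in βRapKO, and 39 of the 57 lower ones had shorter peaks. Tags were counted within each library's own peaks, so regions picked for more tags tend to have longer peaks by construction. The matching shares over all 1844 were not computed, and these counts are not read as a trait of the regions. In 20 of the 83 the sign turned when tags were counted per kb of peak. Whether length or density reflects methylation was not tested.

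**Figure D5:**
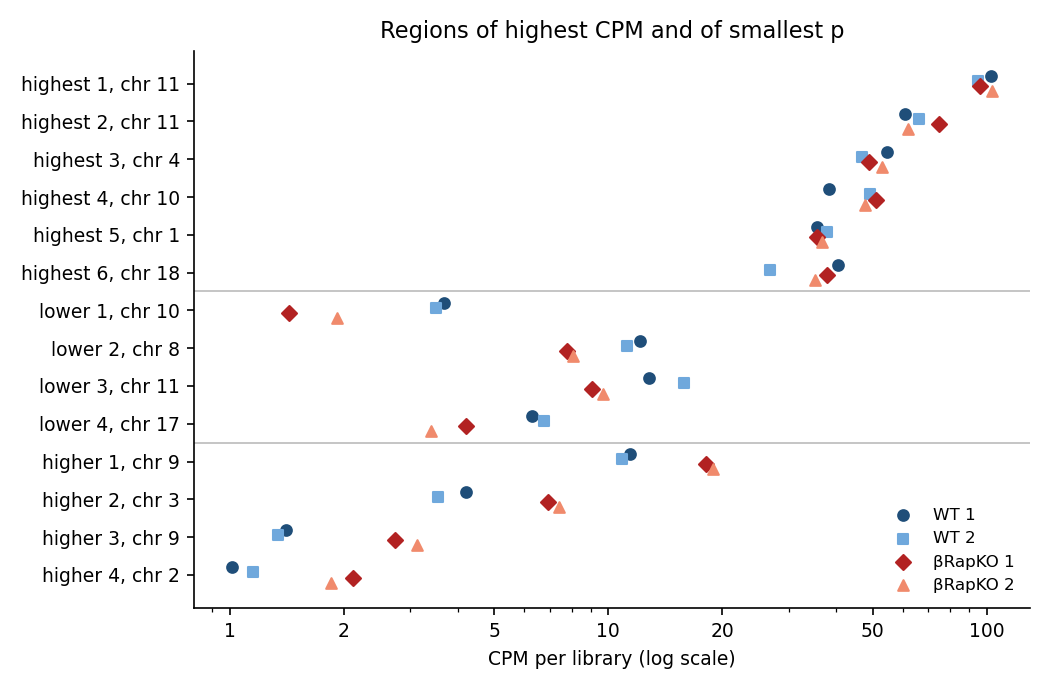
CPM per library on a log scale for the 6 regions of highest mean CPM and the 4 regions per direction with the smallest p, from top to bottom, labelled by chromosome. Symbols of the genotypes mix in the top block. They separate in the lower blocks, where the choice by smallest p favours separation and no adjusted p was below 0.358.

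Peaks found in 1 genotype only were few. Both WT libraries and neither βRapKO library had a peak at 144 regions (3.42%, against 4.19% of all autosomal regions), and the reverse held at 59 (1.4%, against 1.59%). WT replicate 2, the deepest library, had a peak alone at 540 regions, against 174 to 198 for the other libraries. When the same number of top-ranked peaks was taken from every library, the counts became 87 and 101, so their order changed with the number of peaks taken. Leaving out any 1 library raised both counts, since a single library then decides for its genotype, and the highest counts were 684 without WT replicate 1 and 257 without βRapKO replicate 2.

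Of the regions found in WT only, those of highest CPM were chr18:3049405-3052389, with 6.88 and 6.80 CPM, chr6:5846242-5849077 in an intron of the dynein gene Dync1i1, with 7.04 and 6.61 CPM, and chr13:5282086-5284466, with 7.04 and 5.36 CPM. All 3 consisted mostly of repeated sequence, with medians of 476, 518.5 and 560 copies per 50-base window. They were not typical, since 15 of the 144 regions found in WT only, and 4 of the 59 found in βRapKO only, were mostly of repeated sequence. In βRapKO only, chr4:3357882-3359944 held 4.18 and 3.15 CPM, an intron of the calmodulin kinase gene Camk1d (chr2:5673775-5675160) 2.40 and 2.57 CPM, and an intron of the phosphatase regulator gene Ppp6r1 (chr7:4637791-4639269) 1.78 and 2.78 CPM. A library without a peak has no deposited value there, so these differences have no size.

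Coding genes are not scarce so near the centromere. Of 635 coding genes starting in the interval, 482 (75.9%) overlapped a region, against 77.2% of the other autosomal coding genes, and the start site lay in a region for 42 (6.61%, against 6.52%). Genes of 6 groups were then looked up, chosen for their roles and with earlier results of these data known. The counts take regions of the interval in the gene or its upstream 2 kb, and none passed the FDR in any group. Rbfox1 and Camk2b extend beyond the interval, which held 4 of 92 and 3 of 11 of their regions. Counts of lower and higher values stand beside a share of 60.8% below 0 over all regions tested.

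Chromatin and DNA methylation genes had 115 regions at 10 of 10 genes, 39 with a peak in every library, of which 27 had a lower and 12 a higher value in βRapKO (median log2 fold-change -0.06). Dnmt3a, the de novo DNA methyltransferase, had 9 regions, and the one with most tags (chr12:3872635-3874745, over a coding exon) held 2.93 and 2.87 CPM in WT and 2.53 and 3.05 CPM in βRapKO, which overlap. Crebbp, a histone acetyltransferase, had 2.58 and 2.30 CPM in WT and 1.4 CPM in each βRapKO library over a coding exon (chr16:4094543-4096104), with a log2 fold-change of -0.79 ± 0.19 (SE) and an adjusted p of 0.584. Its sign turned per kb of peak and when overlap was required over 50% of the shorter peak. Arid1b, a subunit of the BAF chromatin remodeller, had 48 regions, 14 lower and 4 higher among the 18 tested, and its strongest (chr17:5341113-5344112, coding exon) held 8.91 and 10.2 CPM in WT and 6.91 and 7.71 CPM in βRapKO, a log2 fold-change of -0.39 ± 0.13 (SE) with an adjusted p of 0.840. Suv39h2, which methylates H3K9 at pericentromeric heterochromatin, had 1 region, shared with the overlapping gene Dclre1c, with a peak in 1 library of each genotype.

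Genes of glucose metabolism and islet signalling had 119 regions at 12 of 14 genes, and of 45 tested 25 had a lower and 20 a higher value, with a median of -0.06. Pcx, the pyruvate carboxylase that feeds anaplerosis, had 3.87 and 4.40 CPM in WT and 4.72 and 6.20 CPM in βRapKO over a coding exon (chr19:4617016-4620043), a log2 fold-change of 0.40 ± 0.19 (SE) with an adjusted p of 0.858. Its peaks were longer in βRapKO, at 2.46 and 2.68 kb against 2.02 and 1.73 kb in WT, and the sign turned per kb. Insr, the insulin receptor, had 3.71 and 3.48 CPM in WT and 3.42 and 3.84 CPM in βRapKO in an intron (chr8:3139844-3141546). Rps6kb2, an S6 kinase downstream of mTORC1, had 1.84 and 6.06 CPM in WT and 2.12 and 5.45 CPM in βRapKO (chr19:4156556-4160128), a wider spread within each genotype than between them. That region also overlapped an untranslated part of the gene Ptprcap. Xbp1 and Vip had no region.

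The imprinted Peg10 cluster on chromosome 6 lies in the interval. Its 6 genes had 68 regions, and of the 21 distinct ones tested the median log2 fold-change was 0.07, with 11 lower and 11 higher when a region shared by both genes of a pair is counted for each. The region over the start sites of Peg10, a retrotransposon-derived gene expressed from the paternal allele, and Sgce (chr6:4745864-4749736) held 194 CpG sites, 5.01 per 100 bases. It had 11.2 and 8.81 CPM in WT and 6.91 and 9.63 CPM in βRapKO, which overlap, with a log2 fold-change of -0.27 ± 0.19 (SE) and an adjusted p of 0.866. That value was -0.053 without βRapKO replicate 1, -0.53 without βRapKO replicate 2 and -0.51 per kb of peak, where the adjusted p was 0.212. Ppp1r9a had 40 regions, 4 lower and 7 higher among the 11 tested.

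Developmental transcription factor genes had 26 regions at 8 of 9 genes, with a median of -0.08 over 9 tested, 6 lower and 3 higher. Zeb1, a repressor of epithelial genes, had 8.05 and 7.50 CPM in WT and 6.19 and 7.40 CPM in βRapKO over a coding exon (chr18:5772047-5774383), and Sox17 had no region. Neuronal genes had 70 regions at 6 of 8 genes, with a median of -0.04 over 25 tested, 14 lower and 11 higher. Camk2b, a calcium-dependent kinase, had 6.45 and 6.83 CPM in WT and 4.72 and 5.31 CPM in βRapKO over a coding exon (chr11:5971090-5973428), without overlap, at a log2 fold-change of -0.40 ± 0.15 (SE) and an adjusted p of 0.849. Penk, which encodes enkephalin precursors, had 3.09 and 2.81 CPM in WT and 2.19 and 2.78 CPM in βRapKO (chr4:4133575-4134963), and Pomc and Oprk1 had none. Of the long noncoding RNA genes, Neat1 had 1 region, with a peak in WT replicate 2 alone, and Malat1 had none.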

How the data were processed

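The assay was MeDIP-seq of islet DNA, with 2 WT and 2 βRapKO samples grouped by their labels. The authors aligned reads of 50 cycles to mm10 with Bowtie2 2.2.5 and called peaks per library with MACS (0.14.2 in the labels, 1.4.2 in the file headers), with no input DNA as control, a p threshold of 1e-05, at most 1 tag kept at each position and a background window of 10000 bp. They deposited for each peak its count of tags, not normalized, a score (the caller's −log10 p times 10) and a fold enrichment, which is a ratio to the local background. A region can be lost from a shallower library. Regions with a peak in every library were tested over the whole genome with edgeR 4.0.16 (quasi-likelihood, R 4.3.3), with tags after removal of duplicates as library size. A call needed an FDR under 0.05 and a 1.5-fold change. Alternatives used limma 3.58.1 and DESeq2 1.42.0, and Python 3.11.15 did the rest. The fit was tested on simulated data, and the outcome is not reported here. With 2 libraries per genotype, a region without a call is not thereby shown to be unchanged. Intervals on single counts would cover counting error only and were not computed, since libraries of a genotype differed by more.

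The reference was GRCm38 with GENCODE M21 genes. Windows of 50 bases, taken every 50 bases, were looked up in the whole reference, and a region was mostly multi-copy when at least 50% of them occurred more than once. Tandem repeats were scored by the share of bases equal to the base 10 to 300 positions on, and windows of 2 kb met the criterion at 60%. Regions named were the first on each autosome, the 6 of highest mean CPM, the 4 per direction of smallest p, the 3 per genotype of highest CPM called in that genotype only, and for each listed gene the region with most tags. The values of 1 listed gene are not reported here. Members and gene lists were chosen with earlier results of these data known. Columns of the authors' own comparisons were not used.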

Additional observations from a re-analysis of the deposited data

How the results depend on the processing

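No region next to a centromere passed the FDR under any alternative. The scaling set the direction of the small overall difference. With all tags in peaks as library size the median log2 fold-change was 0.11 and the log2 ratio of summed CPM 0.030, and the median was 0.0091 under TMM normalization and 0.0082 under DESeq2. Peaks were longer in βRapKO, by a median log2 ratio of 0.104 over the 1844 regions tested. Counted per kb of peak, the median was -0.18 and 247 regions had an unadjusted p under 0.05, 243 lower and 4 higher. That count was 17 under DESeq2, 53 with stricter peaks (score of at least 100), 23 for starts between 3 and 4 Mb and 165 for starts up to 9 Mb, where fewer or more regions enter by construction. Peaks in WT only numbered 87 with equal numbers of top-ranked peaks, 44 up to 4 Mb and 293 up to 9 Mb, and peaks in βRapKO only 101, 22 and 123, and 28 with stricter peaks. The log2 ratio of summed CPM was -0.045 with top-ranked peaks.

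Leaving out 1 library gave 65 to 126 regions of unadjusted p under 0.05, medians from -0.090 to -0.021, 292 to 684 regions found in WT only and 134 to 257 in βRapKO only. With a replicate block, 98 regions had an unadjusted p under 0.05 (65 lower, 33 higher) and none was called. Same-numbered libraries deviated together with a correlation of 0.0474, so the numbers were not taken to pair them.

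Of 238 alternative values for the 19 regions with a tested fold-change, 23 changed sign and 215 did not. Per kb of peak the log2 fold-change was -0.17 at chr4:3088877-3092887, -0.26 at chr18:3003474-3011316, 0.30 at chr8:3753860-3757398, 0.10 at chr17:4735834-4739308, -0.42 at chr9:4237766-4243818, -0.19 at chr3:5522422-5525872, -0.19 at chr9:5995105-5997352, -0.23 at chr2:3835874-3837258, 0.31 at chr16:4094543-4096104 and -0.077 at chr19:4617016-4620043. With overlap over 50% of the shorter peak it was 0.36 at the chromosome 16 and -0.13 at the chromosome 19 region, and with stricter peaks -0.13 at the latter. At chr1:5109118-5115014 it was 0.14 with tags in peaks as library size, 0.040 under TMM and 0.039 under DESeq2. With 1 library left out it ran from -0.044 to 0.072 at chr11:3099765-3106227, -0.040 to 0.23 at chr11:3188727-3196327, -0.10 to 0.12 at chr4:3088877-3092887, -0.068 to 0.024 at chr1:5109118-5115014 and -0.15 to 0.45 at chr18:3003474-3011316. The causes of these changes were not tested. Without regions mostly of multi-copy sequence, an alternative chosen after seeing the data, 62 regions had an unadjusted p under 0.05, the median was -0.06, 129 and 55 regions were found in 1 genotype only and the summed ratio was -0.16. A library without a peak has no value, so changes below the calling threshold cannot be seen.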
